A study of Rattus norvegicus with 12 samples.

Results

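The factors that set regional identity in the midbrain were followed across 12 RNA sequencing libraries of rat periaqueductal grey. A list of 46 patterning and regional identity factors was limited to a mean of at least 0.5 TPM (the deposited level, normalised for transcript length and library total), which kept 43 of them, out of 24540 genes that passed the same minimum and 41596 genes in all. The 3 factors left out were Pou4f3, the nearest below the minimum with a mean of 0.194 TPM, Hoxa2 with a mean of 0.0111 TPM, and Hoxb3, listed at 0 in all 12 libraries. The lowest member kept was Pou4f2, with a mean of 0.885 TPM.

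The tissue came from male Sprague Dawley rats, 6 of them morphine-sired (the sire had received morphine) and 6 saline-sired (the sire had received saline), and the comparison asks whether the sire's treatment left a difference in the offspring. The labels give no dose or age and do not say which animals share a sire or litter, and every animal was counted as independent. The libraries are called morphine-sired 1 to 6 and saline-sired 1 to 6, numbers that only name the animals. Each held 4.39 to 6.03 gigabases of aligned sequence, as the ratio of transcript coverage to FPKM in the deposited files gives it.

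Regional transcription factors are read in the embryo as a code of position: engrailed, Pax2 and Pax5 proteins act around the isthmus, the border between midbrain and hindbrain, while Gbx2 and Tcf7l2 are known for thalamus, Pax7 and Barhl factors for dorsal structures such as the superior colliculus, and Foxa2 and Lmx1a for the floor plate and the dopamine neurons that come from it. Many stay on in adult neurons and so mark where a neuron was born. In bulk tissue a lower level of such a factor can come from fewer cells of a type or from less RNA per cell, and these cannot be told apart here.

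RefSeq promoter windows of the GRCr8 build, 250 bases before to 50 after the start of transcription, were found for 28 of the 43 members. Those of 6 members whose levels are compared below are shown 5′ to 3′ on the strand of the gene, to set the promoters of an isthmic paralog pair beside those of members that moved the other way or with another group. Capitals mark matches to 5 short motifs searched on both strands. The zinc finger type was searched as AGATAA and the homeodomain type as TAATTA. The E-box was searched as CAGCTG, the SOX type as ATTGTT and the Meis type as TGACAG. The windows are En1 at chr13:34303434-34303733 on the plus strand, En2 at chr4:7960744-7961043 on the minus strand, Tcf7l2 at chr1:264791085-264791384 on the plus strand, Lhx2 at chr3:42535494-42535793 on the plus strand, Pou4f1 at chr15:87674594-87674893 on the minus strand and Gata3 at chr17:73553298-73553597 on the plus strand.
En1: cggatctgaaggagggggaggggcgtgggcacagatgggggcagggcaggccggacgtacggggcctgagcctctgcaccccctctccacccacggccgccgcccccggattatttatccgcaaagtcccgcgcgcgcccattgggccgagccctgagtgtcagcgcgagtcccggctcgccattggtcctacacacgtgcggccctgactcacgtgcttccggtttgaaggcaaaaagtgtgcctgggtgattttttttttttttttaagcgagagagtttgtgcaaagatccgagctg
En2: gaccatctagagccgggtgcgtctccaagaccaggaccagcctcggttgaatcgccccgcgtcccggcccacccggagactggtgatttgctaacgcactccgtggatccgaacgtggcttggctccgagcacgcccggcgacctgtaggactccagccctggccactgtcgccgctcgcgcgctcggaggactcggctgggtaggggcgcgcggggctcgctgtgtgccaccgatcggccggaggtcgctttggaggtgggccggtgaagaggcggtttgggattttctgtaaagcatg
Tcf7l2: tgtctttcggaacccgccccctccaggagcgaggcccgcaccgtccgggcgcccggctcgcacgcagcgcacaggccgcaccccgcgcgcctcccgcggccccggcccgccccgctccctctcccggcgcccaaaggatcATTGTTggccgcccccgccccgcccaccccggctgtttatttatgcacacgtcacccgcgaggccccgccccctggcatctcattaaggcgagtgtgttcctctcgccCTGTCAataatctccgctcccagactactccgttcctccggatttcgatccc
Lhx2: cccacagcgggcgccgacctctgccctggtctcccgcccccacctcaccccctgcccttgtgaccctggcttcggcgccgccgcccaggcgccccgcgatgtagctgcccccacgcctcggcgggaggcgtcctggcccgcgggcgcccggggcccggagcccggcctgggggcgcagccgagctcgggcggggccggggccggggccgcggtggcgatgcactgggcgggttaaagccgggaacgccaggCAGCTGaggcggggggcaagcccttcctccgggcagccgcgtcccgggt
Pou4f1: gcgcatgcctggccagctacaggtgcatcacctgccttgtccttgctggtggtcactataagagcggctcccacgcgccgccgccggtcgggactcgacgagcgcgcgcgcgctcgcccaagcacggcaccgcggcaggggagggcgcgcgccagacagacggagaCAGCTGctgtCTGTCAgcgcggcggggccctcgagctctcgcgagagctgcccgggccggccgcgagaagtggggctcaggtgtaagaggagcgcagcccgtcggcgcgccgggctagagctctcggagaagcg
Gata3: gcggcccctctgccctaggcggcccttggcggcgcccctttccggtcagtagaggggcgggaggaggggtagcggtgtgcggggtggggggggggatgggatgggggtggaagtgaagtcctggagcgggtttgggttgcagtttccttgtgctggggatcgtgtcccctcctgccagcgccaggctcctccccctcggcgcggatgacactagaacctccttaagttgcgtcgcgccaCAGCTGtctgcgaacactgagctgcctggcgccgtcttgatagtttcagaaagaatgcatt

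The En1 and En2 windows held none of the 5 motifs. The Tcf7l2 window held ATTGTT at -110 and TGACAG on the minus strand at -2, counted from the start of transcription, and the Lhx2 and Gata3 windows held CAGCTG at 2 and -11. The Pou4f1 window held CAGCTG at -84 and TGACAG on the minus strand at -74. Over the 28 windows, AGATAA and TAATTA were found in 0 members, against 11.6% and 5.36% of all 33469 promoters in the RefSeq table. CAGCTG was found in 5 members (17.9%, against 15.1% of all), ATTGTT in 2 (7.14%, against 11.7%) and TGACAG in 6 (21.4%, against 19.0%), and no matches overlapped. The member windows had a median GC content of 64.8% and a median of 21.5 CpG, against 51.7% and 7 over all promoters. A match describes these letters in this window and says nothing on binding.

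Libraries of both groups stood apart in markers of the nuclei next to the periaqueductal grey. Marker scores are set beside the groups of factors below, and their part in the results was not tested. A score here is the mean, over the markers of a list, of standardized deviations from the mean of all 12 libraries. Morphine-sired 1, saline-sired 1 and saline-sired 6 had the lowest cholinergic scores (-1.38, -1.62 and -1.60) and serotonergic scores of -0.88, -0.64 and -1.03. Saline-sired 2 had the highest serotonergic (2.01) and cerebellar (2.35) scores. Saline-sired 2 also stood alone in transcripts of cerebellar neurons: the Purkinje cell gene Pcp2 was at 166 TPM there and at 1.89 TPM or less in the other 11 libraries, and the granule cell genes Gabra6 and Cbln3 were at 37.6 and 33.8 TPM there and at 0.316 and 0.217 TPM or less elsewhere. The 6 cerebellar markers that are not members summed to 90.4 to 173 TPM in morphine-sired libraries, and to 418 TPM in saline-sired 2 and 105 to 219 TPM in the other saline-sired libraries. The 6 serotonergic markers that are not members summed to 55.8 to 453 TPM in morphine-sired and 50.5 to 1044 TPM in saline-sired libraries, all 6 of them found, with Fev, the factor that defines serotonergic neurons, listed at 0 in morphine-sired 1 and 6 and saline-sired 1 and 6. Cholinergic markers (6 of 6 found) summed to 67.8 to 273 TPM in morphine-sired and 53.7 to 242 TPM in saline-sired libraries. Catecholamine markers (6 of 6) summed to 96.8 to 709 TPM in morphine-sired and 99.8 to 345 TPM in saline-sired libraries, and thalamic markers (6 of 6) to 52.5 to 277 TPM in morphine-sired and 62.8 to 399 TPM in saline-sired libraries. GABAergic markers, of a main neuron class of the periaqueductal grey, were present throughout, at 713 to 947 TPM in morphine-sired and 734 to 977 TPM in saline-sired libraries.

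The members spanned a wide range of levels. Tcf7l2, the transcription factor of Wnt signalling known for thalamus and habenula, had the highest mean at 75.9 TPM, followed by the COUP-type nuclear receptors Nr2f2 at 54.2 TPM and Nr2f1 at 51.8 TPM and by the zinc finger factors Zic1 at 29.5 TPM and Zic2 at 22.1 TPM. Each of these means lay within 1 SD of the next, except those of Nr2f1 and Zic1. Irx1 (16.8 TPM), Lhx5 (15.8 TPM), En1 (14.6 TPM) and Gata3 (14.1 TPM) came next. The lowest means above Pou4f2 were those of Ebf2 (1.31 TPM), Pax7 (1.47 TPM) and Lmx1a (1.83 TPM).

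They varied between animals more than most genes. The SD of log2(TPM + 1) over the 12 libraries had a median of 0.46 over the members and 0.24 over all genes tested, 38 of the 43 members lay above the median of all genes, and 14 lay in the top 10%. The highest coefficients of variation were 203% for Pou4f2, 133% for Pax5 and 104% each for En1 and En2. En1 ran over a 37.1-fold range and Pax5, its paired box partner at the isthmus, over a 97.4-fold range. At the other end stood Zfhx4 and Zfhx3, large zinc finger homeodomain factors, and Tal1, the helix-loop-helix factor that specifies midbrain GABAergic neurons, with coefficients of variation of 8.56%, 10.6% and 8.74%. Tal1 ran from 7.82 to 11.0 TPM in morphine-sired and from 9.06 to 10.8 TPM in saline-sired libraries, so its groups overlapped and its whole range was 1.40-fold.

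**Figure D1:**
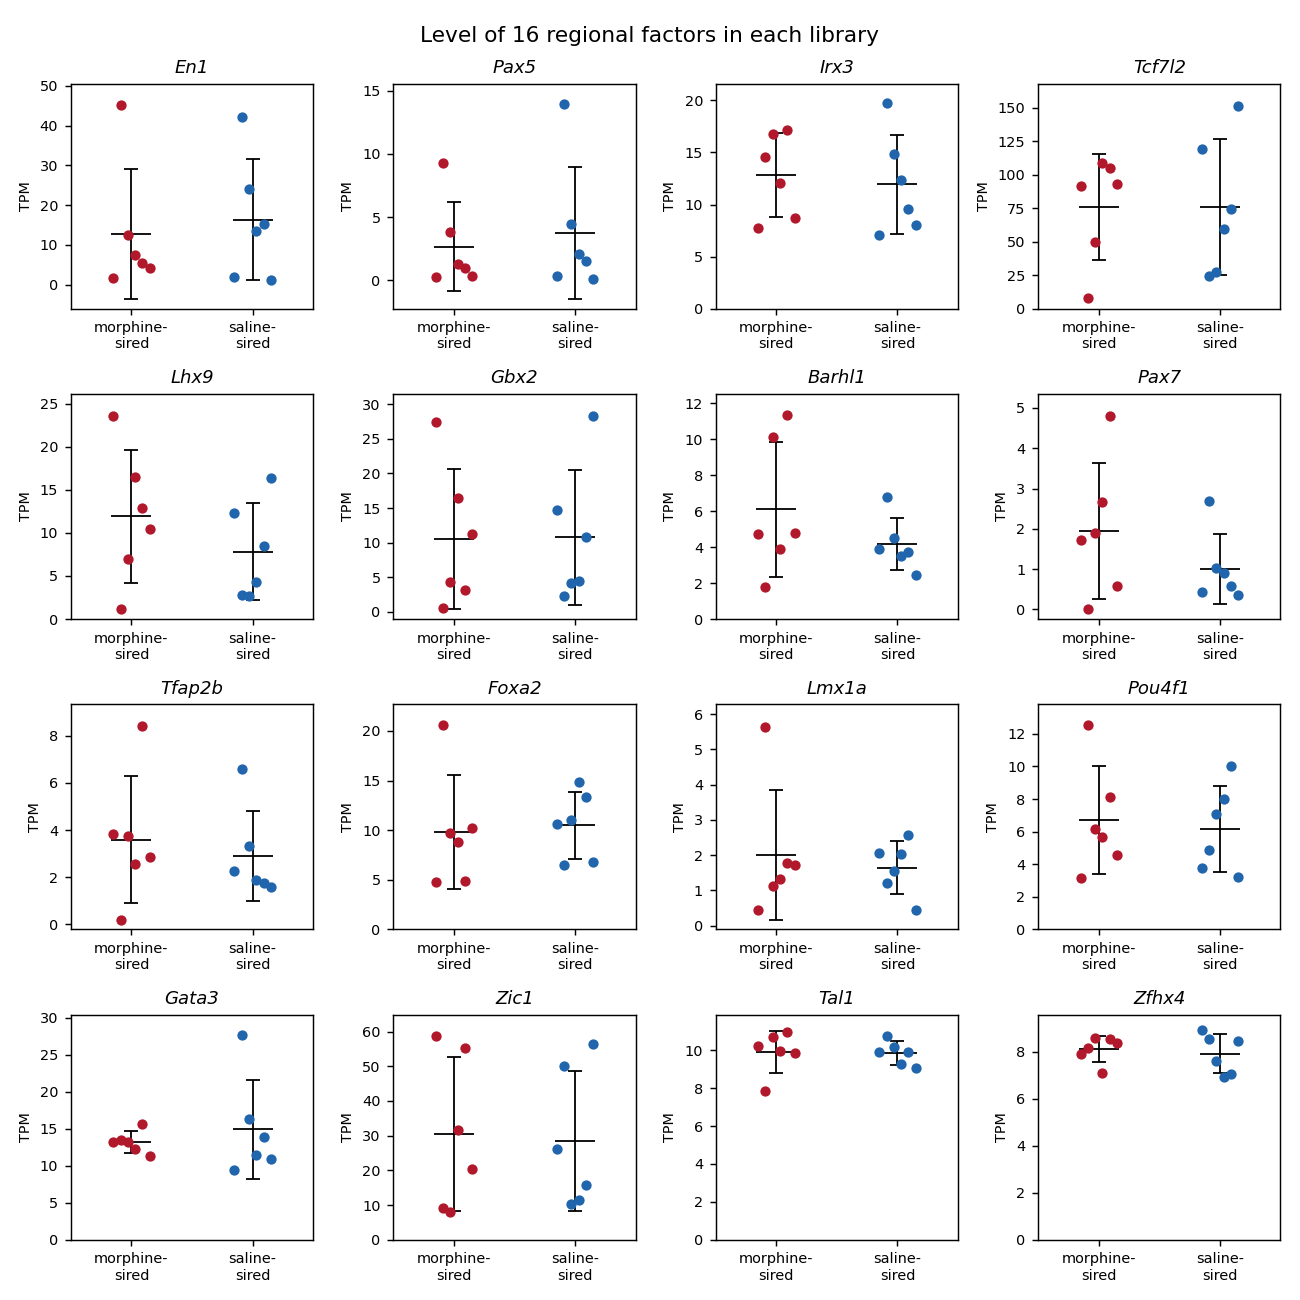
Level of 16 members in each library, in TPM, with morphine-sired libraries left of saline-sired ones; points are single libraries in replicate order, the long line is the mean and the bars are 1 SD (n = 6 each). In each panel the groups overlap, and En1 runs from 1.22 to 45.2 TPM where Zfhx4 runs from 6.94 to 8.94 TPM.

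None of the 43 members differed by the sire's treatment past the threshold. With limma on log2(TPM + 1) and Benjamini-Hochberg adjustment over all 24540 genes, 0 members had an adjusted p under 0.05, where the background is 0% of all genes. At an unadjusted p under 0.05 the count was again 0, against 3.22% of all genes, and 0 members had groups that did not overlap, against 0.0896% of all genes. The mean was higher in morphine-sired rats for 26 members and lower for 17, with a median log2 difference of 0.03. Over all genes tested, 12075 were higher and 12465 lower, with a median of -0.00. Of a second list of 117 regional factors, 114 were found and 79 tested: 46 were higher and 33 lower, 0 passed the threshold and 2 had an unadjusted p under 0.05 with limma, Nr2f6 (log2 difference 0.18 ± 0.07 SE, p 0.0247) and St18 (-0.23 ± 0.10, p 0.0468). Other genes of that list with small p-values were Gsx1 (-0.37), Otx2 (0.29) and Sim2 (-0.23).

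Foxb1, a forkhead factor of the mammillary region and midbrain, had the smallest p among the members. It lay at 2.2, 4.06 and 4.33 TPM (lowest, median and highest) in morphine-sired and at 2.12, 2.90 and 3.17 TPM in saline-sired libraries. Of the 6 morphine-sired libraries, 5 lay above every saline-sired one, while morphine-sired 2 lay below all saline-sired libraries but saline-sired 5. The mean was 3.68 ± 0.82 TPM in morphine-sired and 2.79 ± 0.41 TPM in saline-sired libraries (SD, n = 6 each), with a log2 difference of 0.29 ± 0.14 (limma p 0.0563, adjusted p 0.9998). Without morphine-sired 2 the log2 difference was 0.39 (limma p 0.00342, adjusted p 0.819).

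Ebf1, a helix-loop-helix factor of the early B-cell factor family, ran the other way. It lay at 4.50, 7.70 and 8.45 TPM in morphine-sired and at 7.03, 8.65 and 9.09 TPM in saline-sired libraries, with morphine-sired 2 the lowest of all. The mean was 7.20 ± 1.49 TPM in morphine-sired and 8.39 ± 0.82 TPM in saline-sired libraries, and the log2 difference was -0.22 ± 0.13 (limma p 0.119), or -0.10 without morphine-sired 2. Pou4f2, a POU factor known from retinal ganglion cells and tectum, was at 4.95 TPM in morphine-sired 3 and 4.47 TPM in morphine-sired 5, and at 0.132 TPM or less in the other morphine-sired libraries. Saline-sired libraries held 0 to 0.529 TPM. Its log2 difference was 0.76 ± 0.47 (limma p 0.129), with 2 of 12 libraries holding all the values above 1 TPM. Its mean was 1.64 TPM in morphine-sired and 0.133 TPM in saline-sired libraries. It thus met the minimum of 0.5 TPM only through the morphine-sired group, and its difference is not independent of that rule.

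The other members among the 8 smallest p-values had broad overlap. Pax7, a paired box factor that marks the tectum, averaged 1.94 ± 1.69 TPM in morphine-sired and 0.998 ± 0.868 TPM in saline-sired rats (log2 difference 0.43 ± 0.39). Irx5, an Iroquois homeodomain factor, averaged 9.68 ± 2.60 TPM in morphine-sired and 8.24 ± 2.79 TPM in saline-sired rats (0.23 ± 0.21). Barhl1, a Bar-class homeodomain factor, averaged 6.12 ± 3.76 TPM in morphine-sired and 4.15 ± 1.45 TPM in saline-sired rats (0.33 ± 0.33). Foxp2, a forkhead repressor of thalamus and other regions, averaged 4.77 ± 3.98 TPM in morphine-sired and 5.98 ± 3.53 TPM in saline-sired rats (-0.45 ± 0.50). Lhx9, a LIM homeodomain factor of thalamus and pretectum, averaged 11.9 ± 7.74 TPM in morphine-sired and 7.82 ± 5.60 TPM in saline-sired rats (0.47 ± 0.57). Leaving out 1 library could move each of these 5 by over 1.5 times. The log2 difference was 0.20 for Pax7 and 0.14 for Barhl1 without morphine-sired 5, -0.15 for Foxp2 and 0.92 for Lhx9 without morphine-sired 2, and 0.10 for Irx5 without saline-sired 1. Over the 12 libraries left out in turn it ran from 0.20 to 0.70 for Pax7, 0.14 to 0.57 for Barhl1, -0.73 to -0.15 for Foxp2, 0.22 to 0.92 for Lhx9 and 0.10 to 0.35 for Irx5. In each of these 5 the difference was smaller than the SD within the morphine-sired group on the TPM scale, and 0 of the 43 members passed without the 3 libraries with low marker scores either.

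The spread between animals limits how small a difference could be seen. The members' 95% intervals reached a median of 0.54 on the log2 scale to either side of the difference, against 0.30 over all genes tested. The interval lay within -1 to 1 for 29 members. It ran from -2.05 to 1.44 for En1 and from -1.48 to 1.33 for Tcf7l2, so log2 differences of -1 and 1 both lie inside it for these members. For Zfhx4 it ran from -0.14 to 0.20.

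**Figure D2:**
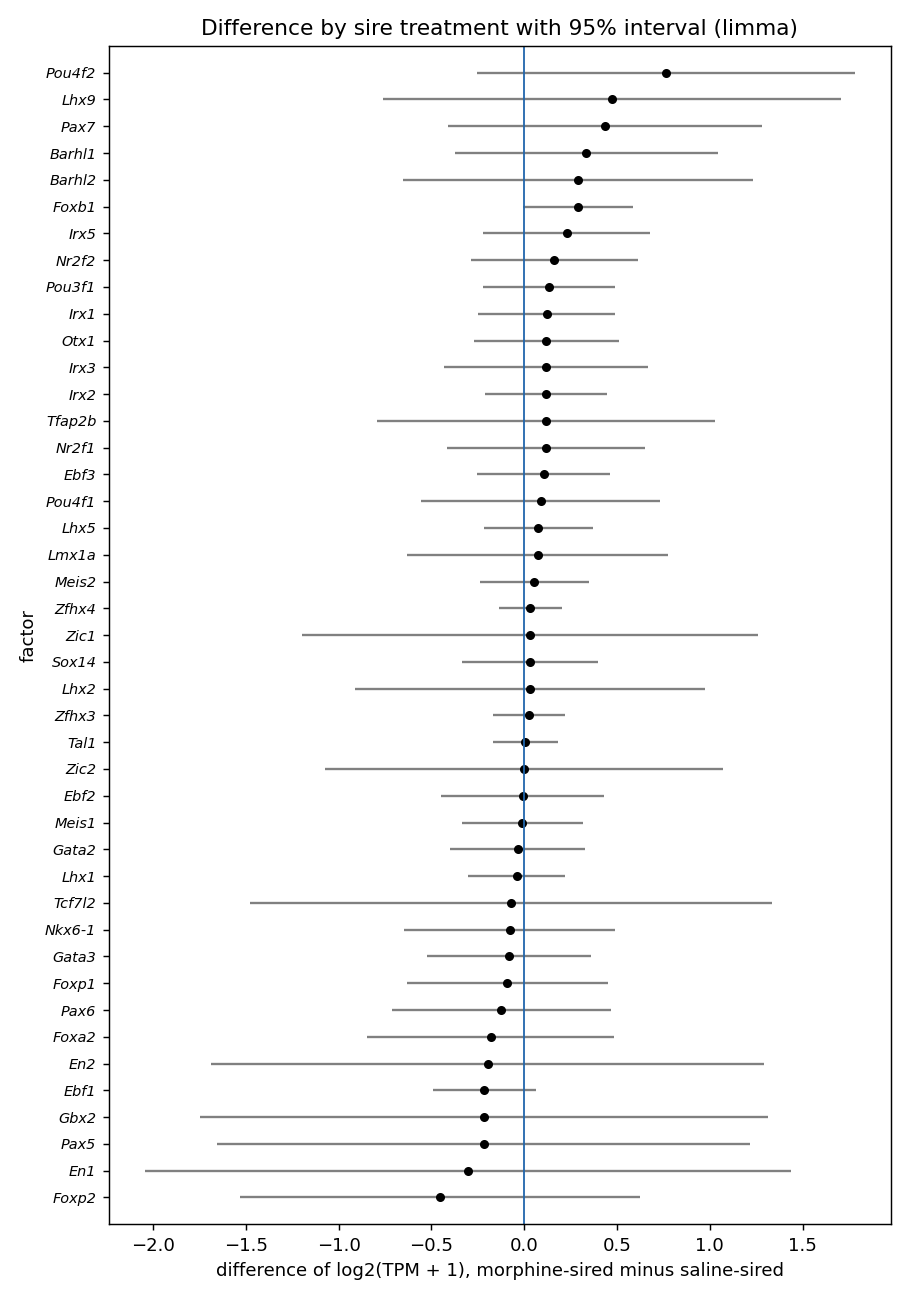
Difference of log2(TPM + 1) for each of the 43 members, morphine-sired minus saline-sired, as a point with its 95% interval from limma; members run from the highest difference at the top, 0.76 for Pou4f2, to the lowest at the bottom, -0.45 for Foxp2. Every interval contains 0, and that of Foxb1 begins at -0.01.

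The larger pattern was between animals within a group. Deviations of log2(TPM + 1) from the group mean were correlated over the 12 libraries for all 903 pairs of members. Pearson's r was 0.7 or more in 124 pairs (13.7%, against 2.03% of all pairs of tested genes) and -0.7 or less in 59 pairs (6.53%, against 1.39%). By a permutation test with Benjamini-Hochberg adjustment over the 903 pairs, 181 pairs had an adjusted p under 0.05 (123 positive and 58 negative), and 100 pairs had this for both Pearson's r and Spearman's rho. The test shuffled deviations over all 12 libraries and not within each group. Deviations from a group mean are not fully exchangeable in this way, so all permutation p-values here are approximate and can be too small. Without morphine-sired 1, saline-sired 1 and saline-sired 6, the libraries with low marker scores, 158 pairs had r of 0.7 or more. With fewer libraries a high r is more common for any pair. The share over all pairs of tested genes was not computed for this setting, so its count cannot be compared with 124. Average-linkage clustering at a mean r of 0.6 gave 6 groups of at least 3 members, which hold 36 of the 43. The groups are called here by a leading member. They describe these libraries and carry no test, and the pairs named below were chosen after their values were seen.

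**Figure D3:**
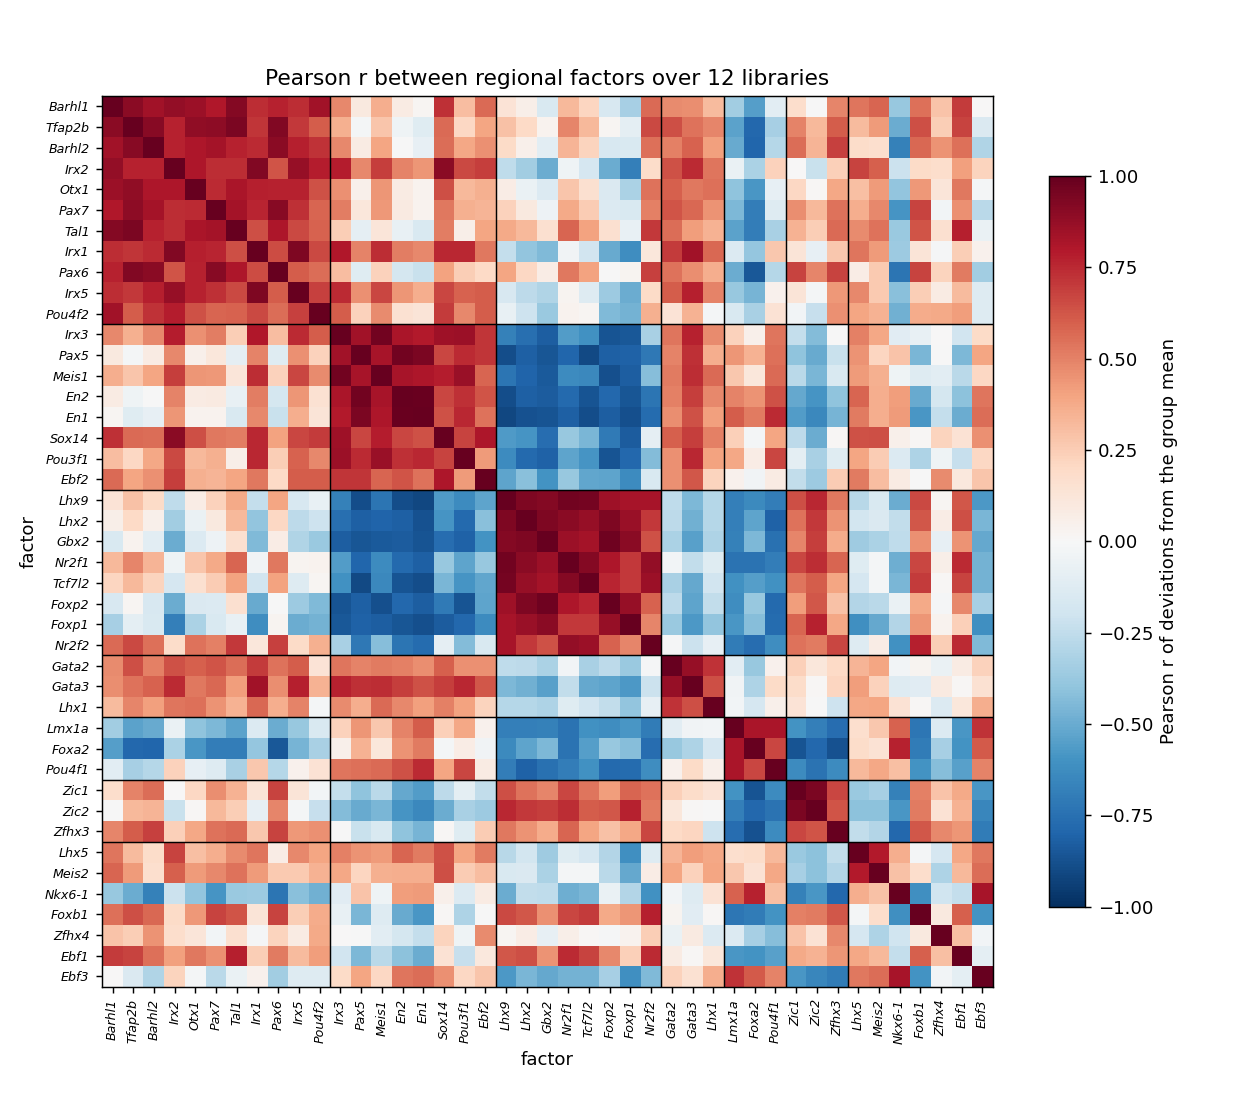
Pearson's r between the 43 members over 12 libraries, as deviations of log2(TPM + 1) from the group mean; lines part the 6 co-varying groups, and the last block holds the 7 members in none. The block from Irx3 to Ebf2, which holds En1, and the block from Lhx9 to Nr2f2 are red within and blue against each other.

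The En1 group held 8 members: the engrailed paralogs En1 and En2, Pax5, the Iroquois factor Irx3, the Hox cofactor Meis1, the SOX repressor Sox14, the POU factor Pou3f1 and Ebf2, with a median r of 0.79 between them. En1 was at 45.2 TPM in morphine-sired 2 and 42.2 TPM in saline-sired 2, and at 1.78 TPM in morphine-sired 1, 2.03 TPM in saline-sired 1 and 1.22 TPM in saline-sired 6. En2 was at 15.7 TPM in morphine-sired 2 and 23.9 TPM in saline-sired 2, and at 0.885 TPM in morphine-sired 1, 0.942 TPM in saline-sired 1 and 0.558 TPM in saline-sired 6. The same libraries were thus highest and lowest for both paralogs, whatever the sire's treatment. Pearson's r between them was 0.98 and Spearman's rho 0.98 (permutation p 1e-05 each, the smallest that 100000 resamples can give, adjusted p 0.00129 and 0.00181), and r was 0.98 without the 2 libraries farthest from the median of En1 and 0.96 without the 3 libraries with low marker scores.

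Pax5, which acts with the engrailed factors at the isthmus, followed them. It lay at 0.305, 1.15 and 9.30 TPM (lowest, median and highest) in morphine-sired and at 0.143, 1.84 and 13.9 TPM in saline-sired libraries, with both maxima in replicate 2. Its r with En1 was 0.95 and its rho 0.97 (permutation p 1e-05 each, adjusted p 0.00129 and 0.00181), and r was 0.92 without the 2 farthest libraries. Irx3, the member with the highest r to the group mean (0.96), moved over a smaller range, at 7.71, 13.3 and 17.2 TPM in morphine-sired and 7.10, 10.9 and 19.8 TPM in saline-sired libraries. The annotated transcript holds under 1% of the Irx3 level, which thus rests on 1 assembled transcript. Meis1 lay at 3.85, 5.11 and 5.94 TPM in morphine-sired and 3.45, 5.15 and 6.90 TPM in saline-sired libraries, and its r with Irx3 was 0.96 (rho 0.92, permutation p 2e-05 and 8e-05, adjusted p 0.00129 and 0.00452). Its r with Irx3 was 0.95 without the 2 libraries farthest from the median of Meis1. Sox14, Pou3f1 and Ebf2 had r values of 0.85, 0.85 and 0.76 to the group mean.

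Serotonergic markers moved with the En1 group. The mean of the group had r 0.94 and rho 0.98 to the serotonergic score over the 12 libraries, and r 0.89 without saline-sired 6 and saline-sired 2, the 2 farthest. Its r was 0.81 to the cholinergic score and 0.84 to the choroid plexus score, whose 5 markers summed to 19.7 to 1798 TPM in morphine-sired and 10.7 to 444 TPM in saline-sired libraries. Of the 79 other regional factors, 10 had r of 0.7 or more to the group mean (12.7%, against 2.53% of all genes tested). They included Lmx1b and Fev (both r 0.91), which belong to the serotonergic list, the isthmic factor Pax2 (r 0.75) and the motor neuron factor Isl1. Fev was at 19.1 TPM in morphine-sired 2 and 49.0 TPM in saline-sired 2. Outside the factors, the genes closest to the group mean were Tmem132e (r 0.96), Pfkfb3 (0.96), the FGF receptor gene Fgfr1 (0.94) and Prpsap1 (0.94), and the part of any of these cell types in the pattern was not tested.

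The Lhx9 group of 8 members ran opposite to the En1 group: Tcf7l2, the isthmic and thalamic factor Gbx2, the LIM factors Lhx2 and Lhx9, the forkhead factors Foxp1 and Foxp2, and Nr2f1 and Nr2f2, with a median r of 0.86. Lhx9, which had the highest r to the mean of this group (0.98), lay at 1.16, 11.7 and 23.5 TPM in morphine-sired and at 2.66, 6.39 and 16.4 TPM in saline-sired libraries. Its paralog Lhx2 lay at 2.46, 11.0 and 22.2 TPM in morphine-sired and at 4.55, 8.73 and 19.0 TPM in saline-sired libraries. Morphine-sired 2 was the lowest library of all for both, and saline-sired 2 and 3 were the lowest of their group for both. The r between these paralogs was 0.93 and rho 0.92 (permutation p 5e-05 and 8e-05, adjusted p 0.00251 and 0.00452), and r was 0.86 without morphine-sired 1 and 2 and 0.90 without the 3 libraries with low marker scores.

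Gbx2 lay at 0.583, 7.74 and 27.5 TPM in morphine-sired and at 2.30, 7.65 and 28.3 TPM in saline-sired libraries, a 48.6-fold range. Its highest values were in morphine-sired 1 and saline-sired 6, the libraries with the lowest En1 of their groups. Foxp2 followed it with r 0.97 and rho 0.94 (permutation p 1e-05 and 4e-05, adjusted p 0.00129 and 0.00361, and r 0.95 without the 2 farthest libraries), but r was 0.04 when annotated transcripts alone were counted. The annotated transcript holds 18.4% of the Gbx2 level. Foxp2 lies in a locus that it shares with AC115440.1, so its level is uncertain. Nr2f1 ran from 23.3 TPM in morphine-sired 2 to 78.4 TPM in morphine-sired 1 and from 37.7 to 60.8 TPM in saline-sired libraries, and its r with Nr2f2 was 0.88 (rho 0.81, permutation p 0.00083 and 0.00228, adjusted p 0.0109 and 0.0286, and r 0.72 without the 2 farthest libraries).

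The opposition was plain between En1 and Tcf7l2. Tcf7l2 was at 7.58 TPM in morphine-sired 2 and 24.3 TPM in saline-sired 2, where En1 was highest, and at 151 TPM in saline-sired 6, where En1 was lowest. The r between them was -0.89 and rho -0.92 (permutation p 4e-05 and 9e-05, adjusted p 0.00241 and 0.00452), and r was -0.82 without the 2 libraries farthest from the median of Tcf7l2 and -0.95 without the 3 libraries with low marker scores. It was 0.32 with annotated transcripts alone, which hold 0.39% of the Tcf7l2 level. En1 and Lhx9 had r -0.91 (rho -0.90, permutation p 5e-05 and 0.00022, adjusted p 0.00251 and 0.00795, and r -0.88 without the 2 farthest libraries), and r was -0.86 with annotated transcripts alone. The means of the En1 and Lhx9 groups had r -0.85.

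**Figure D4:**
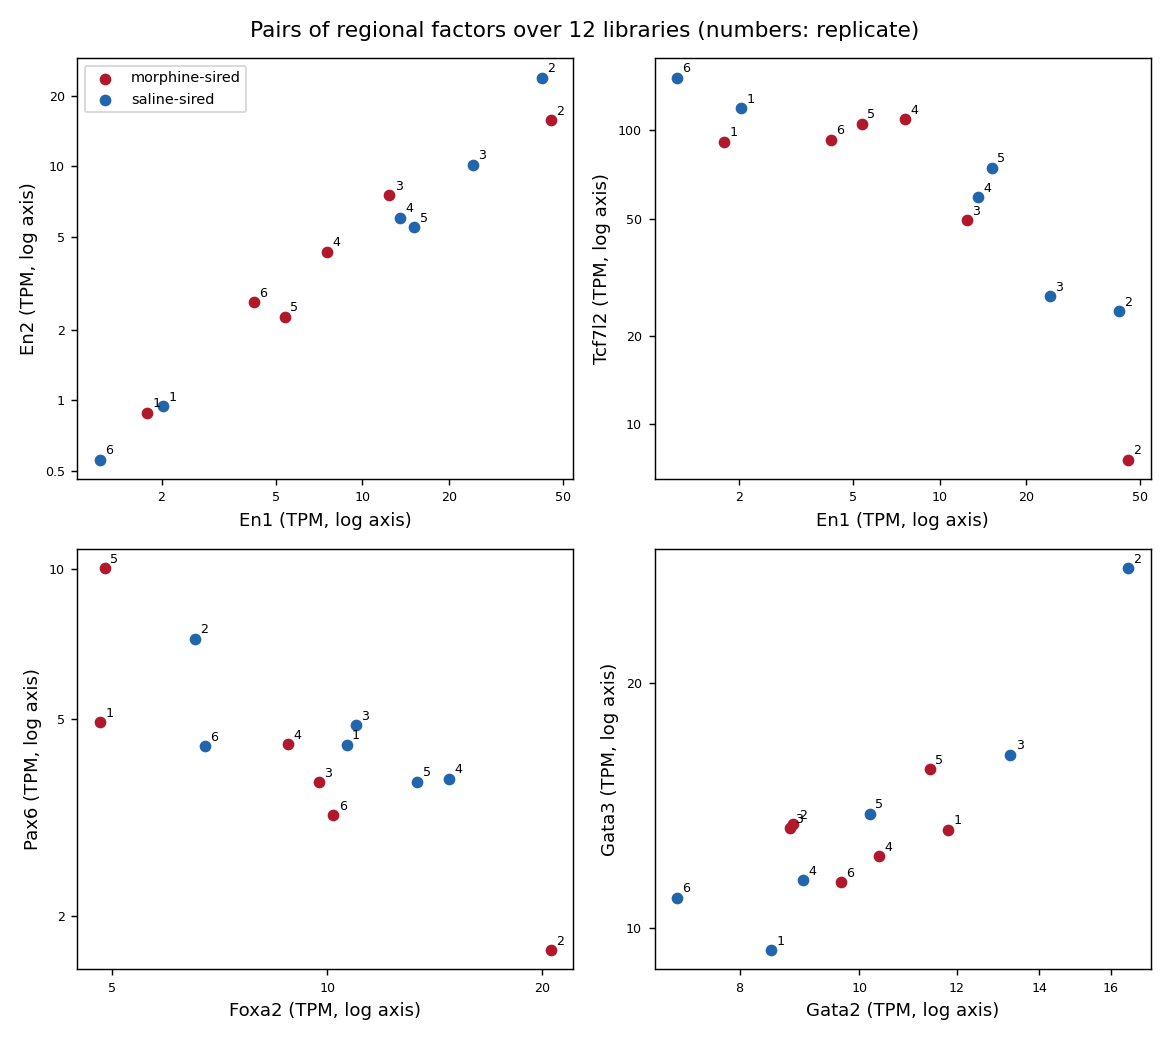
Level of 1 member against another in each of the 12 libraries, in TPM on log axes, with numbers for the replicate and r from deviations of log2(TPM + 1) from the group mean. En1 and En2 rise together (r 0.98), En1 and Tcf7l2 run opposite (r -0.89), Foxa2 and Pax6 run opposite (r -0.85), and Gata2 and Gata3 rise together with saline-sired 2 apart (r 0.87).

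Marker lists ran against the Lhx9 group. Its mean had r -0.85 to the serotonergic, -0.76 to the cholinergic, -0.89 to the catecholamine and -0.88 to the choroid plexus score. Of the other regional factors, 8 had r of 0.7 or more to it (10.1%, against 4.69% of all genes), among them Lef1 (r 0.88), of the same family as Tcf7l2, and Prox1 (r 0.75). Lef1 was at 27.98 TPM in morphine-sired 1 and 34.7 TPM in saline-sired 6, and at 4.70 TPM in morphine-sired 2. The closest genes overall were Camkv, Timp3 and Dipk1c (each r 0.97) and Nhlh2 (0.96). The mean of the Lhx9 group had r -0.75 to the red nucleus and large neuron score (-0.49 without morphine-sired 1 and 2) and 0.65 to the thalamic score (rho 0.67). By a permutation test adjusted over all groups and marker lists, adjusted p of r was 0.0367 and 0.0949. Adjusted p of rho was 0.0877 and 0.104. The part of any marker list in the result was not tested.

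The Barhl1 group was the largest, with 11 members and a median r of 0.77: the Bar-class factors Barhl1 and Barhl2, the AP-2 factor Tfap2b, the paired box factors Pax6 and Pax7, the head homeobox factor Otx1, the Iroquois factors Irx1, Irx2 and Irx5, Tal1 and Pou4f2. Barhl1 lay at 1.79, 4.75 and 11.3 TPM in morphine-sired and at 2.46, 3.82 and 6.77 TPM in saline-sired libraries. Tfap2b lay at 0.196, 3.30 and 8.40 TPM in morphine-sired and at 1.58, 2.06 and 6.59 TPM in saline-sired libraries. Both were highest in morphine-sired 5 and, among the saline-sired, in saline-sired 2, and both were lowest in morphine-sired 2. Barhl2 shared these maxima, at 13.0 TPM in morphine-sired 5 and 8.61 TPM in saline-sired 2. Barhl1 is also on the cerebellar marker list, and saline-sired 2 had the highest cerebellar score (2.35). That score, taken without Barhl1, had r 0.31 and rho 0.03 to the group mean (r -0.33 without saline-sired 2 and morphine-sired 5). Its part was not tested.

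Tal1 belonged to this group despite its small range. Its r with Tfap2b was 0.94 and rho 0.90 (permutation p 1e-05 and 9e-05, adjusted p 0.00129 and 0.00452), and r was 0.84 without morphine-sired 5 and 2. Irx2, at 10.0, 11.6 and 16.7 TPM in morphine-sired and 9.05, 11.1 and 15.8 TPM in saline-sired libraries, paired with Irx1 at r 0.93 (rho 0.90, permutation p 2e-05 and 0.00014, adjusted p 0.00129 and 0.00632, and r 0.84 without the 2 farthest libraries). These neighbours lie 633.4 kb apart on chromosome 1 (Rnor_6.0, Irx2 at chr1:33270397-33277505 and Irx1 at chr1:33910912-33916741). Irx3 and Irx5, which lie 573.5 kb apart on chromosome 19, fell into different groups and had r 0.75 (rho 0.70, permutation p 0.0059 and 0.0145, adjusted p 0.0362 and 0.0816, and r 0.67 without the 2 farthest libraries).

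Pax6 and Pax7 had r 0.91 (rho 0.82, permutation p 0.00011 and 0.00167, adjusted p 0.00355 and 0.0236, and r 0.79 without morphine-sired 2 and 5). Pax7 was listed at 0 in morphine-sired 2 and reached 4.80 TPM in morphine-sired 5, against 0.351 to 2.68 TPM in saline-sired libraries. Outside the members, Mab21l1 was the closest gene (r 0.98), with 15.8 TPM in morphine-sired 5 and 2.88 TPM in morphine-sired 2, and its paralog Mab21l2 had r 0.93. The other closest genes were Col8a2 (0.97), Kif6 (0.96) and Fam163b (0.95). Of the other regional factors, 10 had r of 0.7 or more (12.7%, against 6.61% of all genes), among them Pax3, a paired box factor of dorsal neural tube. The ependymal score, from 4 of 5 markers found that summed to 6.36 to 187 TPM in morphine-sired and 40.1 to 114 TPM in saline-sired libraries, had r 0.86 and rho 0.73 to the group mean (r 0.90 without saline-sired 2 and morphine-sired 5). The group mean also had r 0.74 to the GABAergic, 0.70 to the astrocyte and -0.72 to the oligodendrocyte score (0.76, 0.74 and -0.77 without the same libraries). By the permutation test, adjusted p of r was 0.045, 0.0655 and 0.0515. Adjusted p of rho was 0.099, 0.248 and 0.099. The part of these lists in the result was not tested.

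Gata2 and Gata3, the zinc finger factors that act with Tal1 to make midbrain GABAergic neurons, fell into a group with the LIM factor Lhx1. Tal1 was placed in the Barhl1 group by the split at a mean r of 0.6. The split does not mean that the groups were unrelated: their means had r 0.63, and the lowest r within the Gata2 group was 0.64. Gata3 lay at 11.4, 13.2 and 15.7 TPM in morphine-sired and at 9.39, 12.6 and 27.7 TPM in saline-sired libraries, and Gata2 at 8.79, 10.0 and 11.8 TPM in morphine-sired and at 7.12, 9.60 and 16.5 TPM in saline-sired libraries. Saline-sired 2 held the highest value of both, and of Lhx1 (14.0 TPM). The r of the GATA pair was 0.87 and rho 0.78 (permutation p 0.00038 and 0.00355, adjusted p 0.0066 and 0.0373), and r was 0.72 without saline-sired 6 and 2, 0.88 without the 3 libraries with low marker scores and 0.38 with annotated transcripts alone, which hold 16.8% of the Gata2 and 39.0% of the Gata3 level. Gata3 and Tal1 had r 0.41 and rho 0.66 (permutation p 0.168 and 0.0219, adjusted p 0.31 and 0.101, and r 0.41 without the 2 farthest libraries).

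Gata2 and Gata3 are also made by serotonergic neurons, and saline-sired 2 was the library with the highest serotonergic and cerebellar scores. The group mean had r 0.71 and rho 0.51 to the serotonergic score and r 0.68 and rho 0.32 to the cerebellar score (permutation test, adjusted p of r 0.0515 and 0.162). Without saline-sired 6 and 2 these r values were 0.30 and -0.07, so both relations rest on those libraries. The closest genes to the Gata2 group were Lyl1 (r 0.94), a relative of Tal1, and Eif3h (0.93), Eid2 (0.92) and Gnas (0.91). Of the other regional factors, 8 had r of 0.7 or more (10.1%, against 2.07% of all genes), with Zfpm1, a GATA cofactor, at r 0.83. Zfpm1 was at 26.7 TPM in saline-sired 2, against 11.2 to 19.0 TPM in the other saline-sired libraries and 13.3 to 18.4 TPM in morphine-sired ones.

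The Foxa2 group held Foxa2 and Lmx1a, which specify midbrain dopamine neurons, and Pou4f1, a POU factor of the red nucleus and habenula. Foxa2 lay at 4.80, 9.27 and 20.6 TPM in morphine-sired and at 6.52, 10.8 and 14.8 TPM in saline-sired libraries. Lmx1a lay at 0.453, 1.53 and 5.65 TPM in morphine-sired and at 0.451, 1.79 and 2.56 TPM in saline-sired libraries. Pou4f1 lay at 3.17, 5.93 and 12.6 TPM in morphine-sired and at 3.23, 5.98 and 10.0 TPM in saline-sired libraries. All 3 were highest in morphine-sired 2 and low in morphine-sired 1 and saline-sired 6. The r between Foxa2 and Lmx1a was 0.82 and rho 0.66 (permutation p 0.0016 and 0.0216, adjusted p 0.0154 and 0.101), and r was 0.55 without morphine-sired 1 and 2, so the relation rests partly on these libraries. It was 0.74 without the 3 libraries with low marker scores.

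Dopamine neuron genes moved with the Foxa2 group. The dopamine transporter gene Slc6a3 had r 0.94 to its mean, with 103 TPM in morphine-sired 2 and 1.24 TPM in morphine-sired 1, against 2.36 to 28.3 TPM in saline-sired libraries. The nicotinic receptor gene Chrna6 had r 0.96, Efr3a 0.96 and Fgf11 0.93. Of the other regional factors, 9 had r of 0.7 or more (11.4%, against 2.69% of all genes), among them Pitx3 (r 0.88), a dopamine neuron factor, at 5.04 TPM in morphine-sired 2, and Foxa1 (r 0.82), the paralog of Foxa2. The catecholamine score had r 0.88 to the group mean (0.70 without morphine-sired 1 and 2) and the score of the red nucleus and large neuron list 0.80 (0.58 without them). The glutamatergic score ran the other way, with r -0.71 and rho -0.83 (r -0.87 without them), as did the thalamic score with r -0.67 (-0.70 without them), while the oligodendrocyte score had r 0.69 (0.25 without them). By the permutation test, adjusted p of r was 0.0541, 0.081 and 0.0761 for the glutamatergic, thalamic and oligodendrocyte scores. Adjusted p of rho was 0.0329, 0.118 and 0.237. The part of these lists was not tested.

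Zic1, Zic2 and the homeodomain factor Zfhx3 made the Zic1 group, which ran against the Foxa2 group, with r -0.87 between the group means. Zic1 lay at 8.09, 26.0 and 58.6 TPM in morphine-sired and at 10.4, 20.9 and 56.5 TPM in saline-sired libraries, and Zic2 at 7.66, 19.0 and 51.1 TPM in morphine-sired and at 8.50, 18.0 and 44.2 TPM in saline-sired libraries. Morphine-sired 1 and saline-sired 6 were the highest of their groups for both. The r of the Zic pair was 0.94 and rho 0.97 (permutation p 2e-05 and 1e-05, adjusted p 0.00129 and 0.00181, and r 0.93 without the 2 farthest libraries). Foxa2 and Zic1 had r -0.86 (rho -0.85, permutation p 0.00028 and 0.00093, adjusted p 0.00553 and 0.0175, and r -0.85 without the 2 farthest libraries).

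Zfhx3 moved with the Zic pair over a small range, from 7.42 to 9.90 TPM in morphine-sired and from 7.31 to 9.61 TPM in saline-sired libraries. The closest genes outside the members were Zic5 (r 0.96), Kcns2 (0.94), Cited4 (0.94) and Tmem132a (0.93). Of the other regional factors, 8 had r of 0.7 or more (10.1%, against 3.39% of all genes), among them the family members Zic5 and Zic4 (0.87). The thalamic score had r 0.78 to the group mean (0.55 without saline-sired 6 and morphine-sired 1) and the glutamatergic score 0.77 (0.64 without them). The catecholamine score had r -0.76 (-0.66 without them), the cholinergic score -0.71 (-0.44) and the red nucleus score -0.70 (-0.62), and their part was not tested. Pax6 too ran against the floor plate factor Foxa2, with r -0.85 and rho -0.90 (permutation p 0.00034 and 0.00018, adjusted p 0.00602 and 0.00739, and r -0.75 without morphine-sired 2 and 5).

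**Figure D5:**
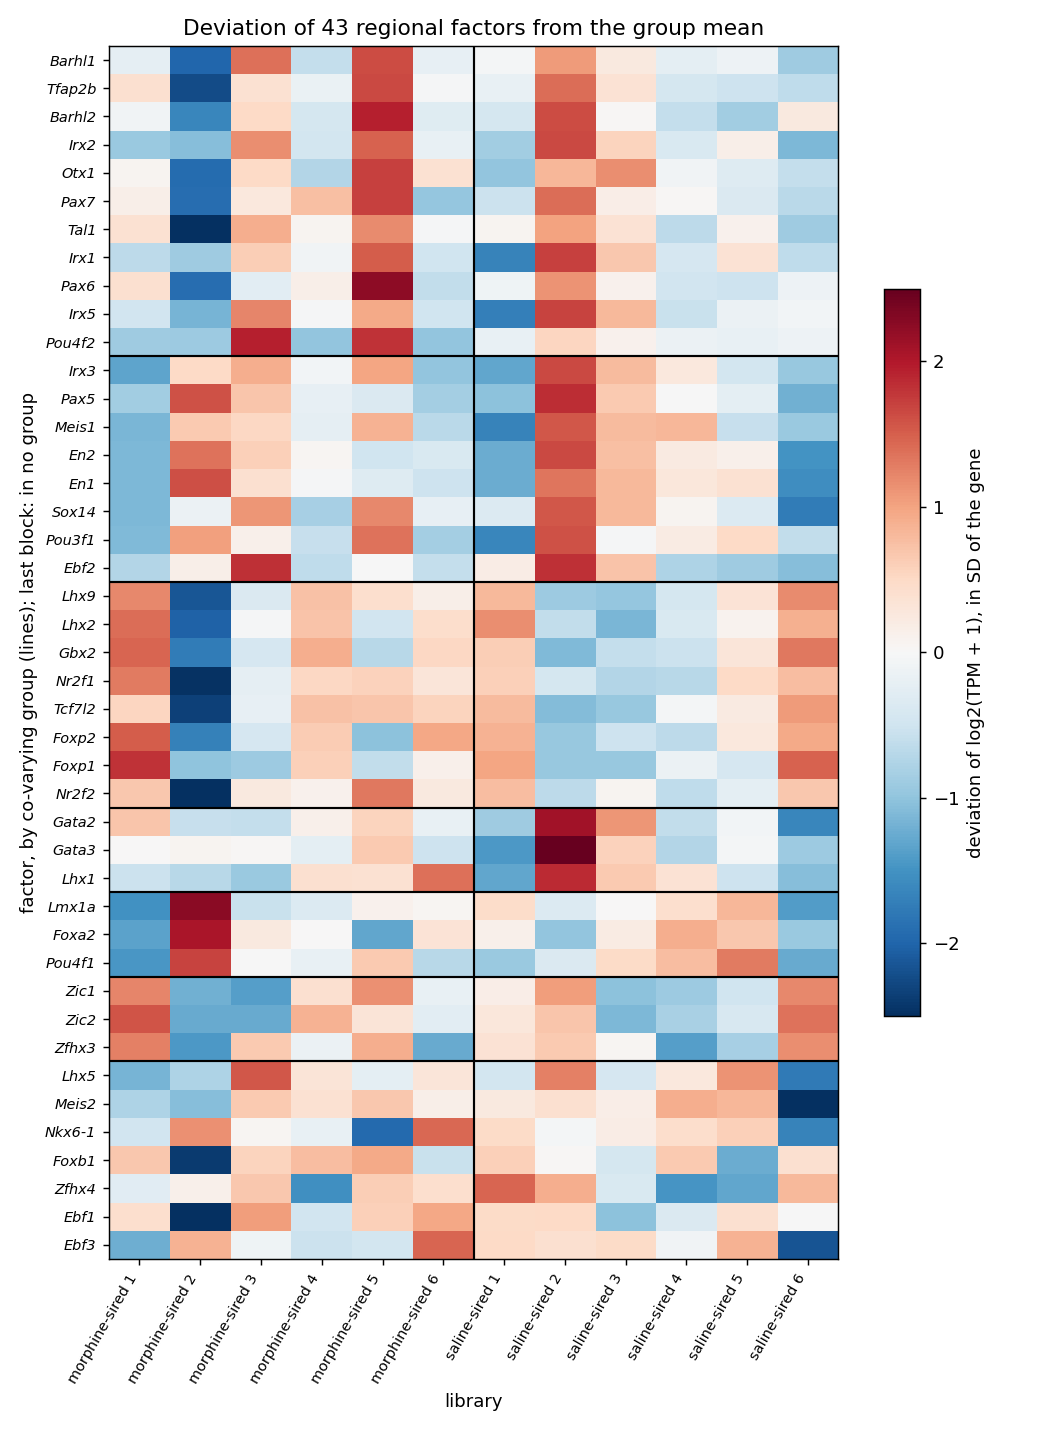
Deviation of each of the 43 members from its group mean in each library, in SD of log2(TPM + 1) of the gene, with morphine-sired libraries left of saline-sired ones and lines between the 6 co-varying groups. Saline-sired 2 is red in the En1 and Gata2 blocks, morphine-sired 2 is red in the Foxa2 block and blue in the Lhx9 block, and morphine-sired 1 and saline-sired 6 are red in the Lhx9 block and blue in the Foxa2 block.

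The 7 members in no group were Lhx5, Meis2, Nkx6-1, Foxb1, Zfhx4, Ebf1 and Ebf3. Nkx6-1, a homeodomain factor of ventral neural tube, paired with Ebf3 at r 0.82 and rho 0.92 (permutation p 0.00121 and 9e-05, adjusted p 0.0132 and 0.00452, and r 0.88 without the 2 farthest libraries), and with Foxa2 at r 0.77 and rho 0.84 (permutation p 0.00308 and 0.00136, adjusted p 0.0236 and 0.0219, and r 0.73 without them). It was at 18.9 TPM in morphine-sired 6 and 5.51 TPM in morphine-sired 5, against 6.56 to 14.98 TPM in saline-sired libraries. Zfhx4 had no pair with r of 0.7 or more in either direction.

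Paralogs did not all move together. Beside the engrailed, Zic, Irx1 and Irx2, Lhx2 and Lhx9, and GATA pairs above, Foxp1 and Foxp2 had r 0.87 (rho 0.86, permutation p 0.00023 and 0.00066, adjusted p 0.00532 and 0.0149, and r 0.81 without the 2 farthest libraries). Meis1 and Meis2 had r 0.35 and rho 0.50 (permutation p 0.276 and 0.104, adjusted p 0.429 and 0.266, and r 0.47 without the 2 farthest libraries). Pou4f1 and Pou4f2 had r 0.15 and rho 0.12 (permutation p 0.649 and 0.711, adjusted p 0.775 and 0.824, and r 0.50 without them). Lhx1 and Lhx5 had r 0.39 and rho 0.45 (permutation p 0.215 and 0.141, adjusted p 0.365 and 0.313, and r 0.15 without them).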

How the data were processed

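Periaqueductal grey of 12 animals was sequenced as polyA RNA. Per the submitters' processing notes, reads were handled with Trimmomatic 0.39, HISAT2 2.2.0, SAMtools 1.11 and StringTie 2.1.2 on Rnor_6.0, while the file headers name StringTie 1.3.6. Strand and pairing are not given in the sources used here. The authors deposited coverage, FPKM and TPM for 76232 transcripts per library (41063 annotated, 35169 assembled), and a log2 table of the series from which the symbols were taken.

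TPM was summed per gene, with assembled transcripts given to a locus of 1 symbol. For 17 of the 43 members annotated transcripts hold under 50% of the TPM, and for 3 (Tcf7l2, Otx1 and Irx3) under 1%. Genes averaging 0.5 TPM or more were tested with limma 3.58.1 (R 4.3.3, intensity trend, two-sided, adjusted p under 0.05) on log2(TPM + 1), a scale that understates changes of low genes. Correlations, clustering and 100000-resample two-sided permutation tests used Python 3.11.15 with scipy 1.17.1. Both steps were tested on simulated data.

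Members and lists were chosen with earlier results of these data known. The rule for named genes took the 8 members with the smallest p, per-library values of the 4 members closest to each group mean, and the 4 closest other genes; En1, Tcf7l2, Foxp2, Tal1, Irx5, Pax6 and single other factors were added after their values were seen. A gene of the second list that the rule would name is not reported here.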

Additional observations from a re-analysis of the deposited data

Results flagged for a closer look

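Within each group of 6 libraries, a member's highest or lowest library was picked out where its gap to the next one, set against the whole range, exceeded Dixon's 95% critical value. This held in 14 of 86 groups of libraries. Chance gives about 5% of groups if values are normally distributed, which TPM need not be, and members that move together are not independent here. The share over all genes tested was not computed, so the count is not read as a trait of the members. Morphine-sired 2 stood apart for En1 (45.22 TPM, others 1.78 to 12.4), Foxa2 (20.56 TPM, others 4.80 to 10.2), Lmx1a (5.65 TPM, others 0.453 to 1.79) and Tal1 (7.822 TPM, others 9.84 to 11.0). Morphine-sired 3 stood apart for Ebf2 (2.428 TPM, others 0.896 to 1.33) and morphine-sired 5 for Barhl2 (13.03 TPM, others 0.953 to 5.30).

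Saline-sired 2 stood apart for Pax5 (13.91 TPM, others 0.143 to 4.49), Pax6 (7.248 TPM, others 3.74 to 4.85), Pax7 (2.685 TPM, others 0.351 to 1.04), Barhl2 (8.608 TPM, others 1.41 to 3.50), Tfap2b (6.589 TPM, others 1.58 to 3.34) and Pou4f2 (0.5285 TPM, others 0 to 0.198). Saline-sired 6 stood apart for Meis2 (8.072 TPM, others 13.12 to 14.95) and Nkx6-1 (6.564 TPM, others 11.86 to 14.98). Saline-sired 2 also held the cerebellar transcripts Pcp2 (166 TPM, 1.89 TPM or less in every other library), Gabra6 (37.6 TPM) and Cbln3 (33.8 TPM), and their part in these values was not tested.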

How the results depend on the processing

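No member passed the adjusted threshold under any setting tried, and the 182 recomputed log2 differences of the 8 members with the smallest p all kept their direction and their side of the threshold. Their sizes moved more: over the settings that tested each member the log2 difference ran from 0.43 to 2.63 for Pou4f2, 0.17 to 0.92 for Lhx9, 0.20 to 0.90 for Pax7, 0.14 to 0.70 for Barhl1, 0.10 to 0.44 for Irx5, 0.23 to 0.40 for Foxb1, -0.41 to -0.08 for Ebf1 and -0.73 to -0.15 for Foxp2. Foxb1 was not tested with annotated transcripts only, which hold 7.29% of its level. Pou4f2 was not tested with a minimum mean of 1 TPM. At an unadjusted p under 0.05 the count of members was 1 (Foxb1) with median ratio scaling, quantile normalization, limma without trend and limma-voom on estimated reads. The share of all genes was 3.31%, 3.34%, 3.39% and 3.03% in these settings. The count was 1 (Pax6, log2 difference -1.02) with annotated transcripts only, against 3.53% of all genes. With each library left out in turn the count ran from 0 to 2. The 2 were Foxb1 (0.39) and Nr2f2 (0.36) without morphine-sired 2, where 6% of all genes passed the same mark. Without saline-sired 2 and morphine-sired 2 together, chosen after seeing the data, the count of members was 7 (Foxb1, Pax7, Tfap2b, Barhl1, Nr2f2, Irx5 and Barhl2, smallest limma adjusted p 0.41), where 8.86% of all genes passed the same mark. Over all genes, 1 passed the adjusted threshold without saline-sired 1 and 6 and morphine-sired 1 together, and 0 to 1 with each library left out (1 without saline-sired 4 and 1 without saline-sired 6). The count of member pairs with r of 0.7 or more was 45 with annotated transcripts only, against 124. That setting drops assembled transcripts. Its pair count still covered all 43 members, while 38 members passed the level rule in its limma fit. The pair count ran from 120 to 150 with each library left out, and the number of co-varying groups from 4 to 6. No paired analysis was possible because the labels give the animals no numbers shared between the groups. Depth limits the lowest members most, and TPM is relative to the library total.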
